A study of Rattus norvegicus with 6 samples.

Results

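The genes described here charge transfer RNA and supply the amino acids that it carries. They are 32 genes of rat RBL-2H3 cells: 20 cytosolic aminoacyl-tRNA synthetases, 4 enzymes that make asparagine and serine, 6 enzymes of folate one-carbon metabolism and the 2 subunits of the large neutral amino acid transporter. The members were taken by symbol from a list that was chosen with earlier results of these data known. The rule itself holds no measured value. All 32 had 1 row under their plain symbol among the 18286 genes measured. RBL-2H3, derived from a rat basophilic leukemia, expresses FceRI, the receptor for IgE, and stands in for mast cells in culture.

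RNA was sequenced in 3 control libraries, whose treatment label is "none", and in 3 libraries from cells given dihydrocoumarin (DHC), a lactone related to coumarin. How much DHC was given, and for how long, is not in the labels. The labels call the tissue peripheral blood and the cell type blood corpuscle, although the source named is the cell line. All 6 carry the same protocol of sensitization with 50 ng/ml anti-DNP IgE for 12 h and stimulation with 100 ng/ml DNP-HSA for 4 h, while the series' design calls the controls untreated, so whether the controls received IgE and antigen cannot be told from the labels. Both groups grew in medium with 4.0 mM glutamine, non-essential amino acids and 10% serum. No label says whether each library had its own culture. The spread behind every p-value is that between libraries and may be technical.

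Levels are given as RPKM, reads per kilobase of exon scaled to the library's total, with SD over 3 libraries per group, and folds are ratios of mean RPKM. Log2 fold changes are DHC minus control on the log2(RPKM + 1) scale with their SE, and a gene is called higher or lower where limma's adjusted p, taken over all 10667 genes whose mean reached 1 RPKM, is below 0.05. Library totals ran from 29084976 to 34170922 reads, and tested members held between 666 reads for Shmt1 and 50338 reads for Sars on average. The IgE receptor chains Fcer1a (107 ± 4.46 RPKM in control, 109.8 ± 9.46 with DHC), Ms4a2 (321 ± 15.9 and 368 ± 10.00) and Fcer1g (31.8 ± 1.46 and 30.7 ± 4.41) were present in both groups, of which Ms4a2 was called higher (limma adjusted p = 0.0166, lost under both other scalings and without control 2, DHC 2 or DHC 3). Of the 8 mast cell and basophil markers tested, 3 were lower: the transcription factor Gata2 from 345 ± 10.3 to 69.9 ± 1.90 RPKM (adjusted p = 5.07e-07), the receptor tyrosine kinase Kit from 115 ± 7.36 to 64.4 ± 4.02 RPKM (0.000108) and the histidine decarboxylase Hdc from 47.3 ± 1.37 to 38.2 ± 4.08 RPKM (0.0183, lost without control 2, control 3 or DHC 2). The summed level of the 10 mast cell and basophil markers with a row was 978 to 1003 RPKM in control and 693 to 719.7 with DHC. Of other cell types, T cell markers summed to 31.8 to 37.5 RPKM in control and 40.7 to 43.8 with DHC, nearly all from Cd3e, with the other 4 of 5 below 1 RPKM, and fibroblast markers summed to 22.6 to 24.5 and 20.6 to 23.5 RPKM, nearly all from Col3a1. B cell, neutrophil, macrophage and epithelial markers each summed to below 3 RPKM in every library. The share of reads from mitochondrially encoded genes was 3.44 ± 0.0956% in control and 4.00 ± 0.127% with DHC, and its part in the results was not tested. In a bulk sample, fewer cells of a kind and less RNA per cell cannot be told apart.

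An aminoacyl-tRNA synthetase joins 1 amino acid to its tRNAs, which the ribosome then reads. Of these genes, 8 encode subunits of a large multisynthetase complex. The others are called free here, which means only that they are outside that complex. Slc7a5 (LAT1) is the light chain that carries leucine, tryptophan, tyrosine and other large neutral amino acids, and Slc3a2 (CD98) is the heavy chain that brings it to the cell surface. When a tRNA lacks its amino acid, the kinase GCN2 phosphorylates the initiation factor eIF2, translation of the transcription factor ATF4 rises, and ATF4 induces many synthetases, Asns, serine and one-carbon enzymes and transporters. In mast cells, cytokine and granule protein production after receptor cross-linking draws on the same supply of amino acids.

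ATF4 and its C/EBP partners bind sites of the type TGATGNAA, so the members' promoters were searched for these letters. RefSeq promoter windows of the build GRCr8, from 250 bases before to 50 after the annotated start, were analysed for 26 of the 32 members, leaving out Aars, Dars, Gars, Rars, Aldh1l2 and Mthfd1. TGATGNAA on either strand was present in 6 of the 26, all of them synthetases: Cars, Iars, Mars, Nars, Tars and Yars, or 6 of 16 synthetases analysed (37.5%). The same letters were present in 2.10% of 7187 tested genes matched to a window and in 3.98% of all 33469 windows. The match lay before the start in 4 of the 6 synthetases, Iars, Mars, Nars and Tars, at 14 to 27 bases. In Cars and Yars it lay after the start. All but the Nars match are printed, on the gene's strand with TGATGNAA, or its reverse complement, in capitals. None of these matches overlapped a match to another motif searched.

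Cars, chr1:208225334-208225363, minus strand, 18 bases after the start: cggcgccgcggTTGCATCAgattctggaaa

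Iars, chr17:15193658-15193687, minus strand, 24 bases before the start: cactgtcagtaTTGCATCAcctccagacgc

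Mars, chr7:65023752-65023781, minus strand, 17 bases before the start: gcccgttccggTTGCATCAgcgtgggctcc

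Tars, chr2:62114811-62114840, minus strand, 27 bases before the start: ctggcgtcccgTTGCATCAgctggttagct

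Yars, chr5:146820190-146820212, plus strand, 39 bases after the start: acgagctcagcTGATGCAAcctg

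All 5 printed sites read TTGCATCA or its complement TGATGCAA, so the open position of the motif is the same base in each. A match describes these letters in this window and not a bound site. Absence of a match does not show that a gene lacks such a site, since only these letters in this window were searched. The E-box CACGTG, on both strands the same letters, was present in 6 of the 26 members (Farsb, Iars, Tars, Vars, Shmt1 and Slc7a5) against 10.2% of tested genes. The Slc7a5 match is shown because that gene had the greatest fall of the members:

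Slc7a5, chr19:66872575-66872602, minus strand, 179 bases before the start: atcatacgctcCACGTGcttcaacagac

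Of the other motifs, the ETS core CCGGAAG was present in 9 of 26 members, again all synthetases, against 21.4% of tested genes, the GC box GGGCGG in 18 against 66.0%, and CCAAT in 13 against 39.9%.

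**Figure D1:**
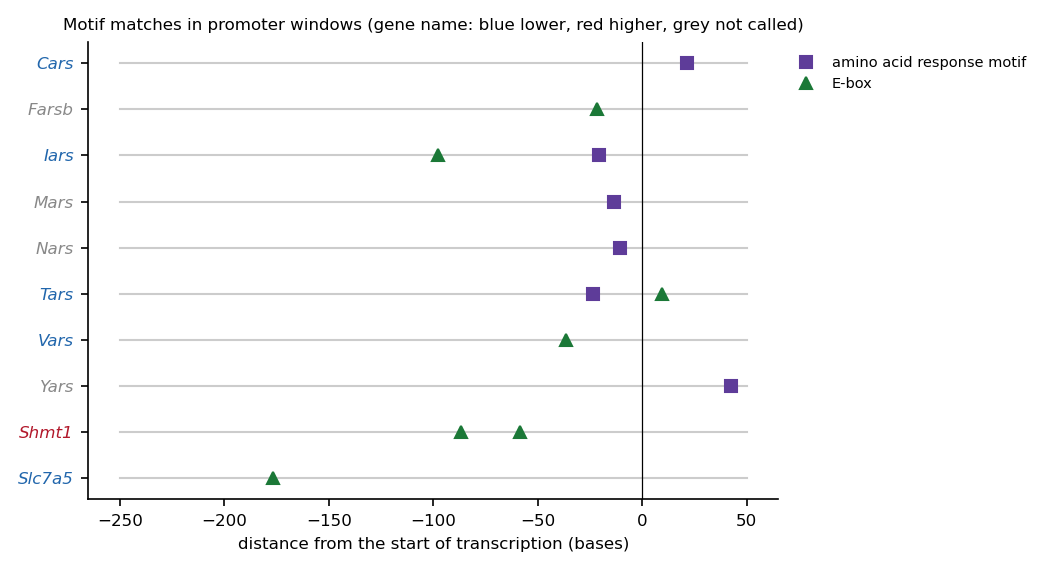
Matches to TGATGNAA (squares, amino acid response motif) and CACGTG (triangles, E-box) by distance from the annotated start in bases, for the members analysed with at least 1 match; grey lines span the window. Names in blue were called lower with DHC, red higher and grey not called.

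With DHC, 11 of the 31 tested members were lower, 2 were higher and 18 did not pass the test. The falls took in both transporter subunits, 8 synthetases (Wars, Cars, Sars, Iars, Vars, Tars, Lars and Aars) and asparagine synthetase, while Farsa and Shmt1 rose. Of all genes tested, 34.5% were called, 16.1% lower and 18.4% higher, against 35.5% lower and 6.45% higher among the tested members. The median log2 fold change was -0.10 over the tested members and 0.05 over all genes tested. In 20 of the 31 the 3 DHC libraries did not overlap the 3 control libraries, against 49.7% of all genes tested (21.6% lower and 28.1% higher). Under both other scalings the split moved further: with trimmed means 16 members were lower and 0 higher, and among all genes 2114 were lower and 1284 higher. Cars, Iars, Sars, Tars, Vars, Wars, Asns, Slc7a5 and Slc3a2 were lower under each of the 17 alternatives run, and neither of the higher members passed under all of them.

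**Figure D2:**
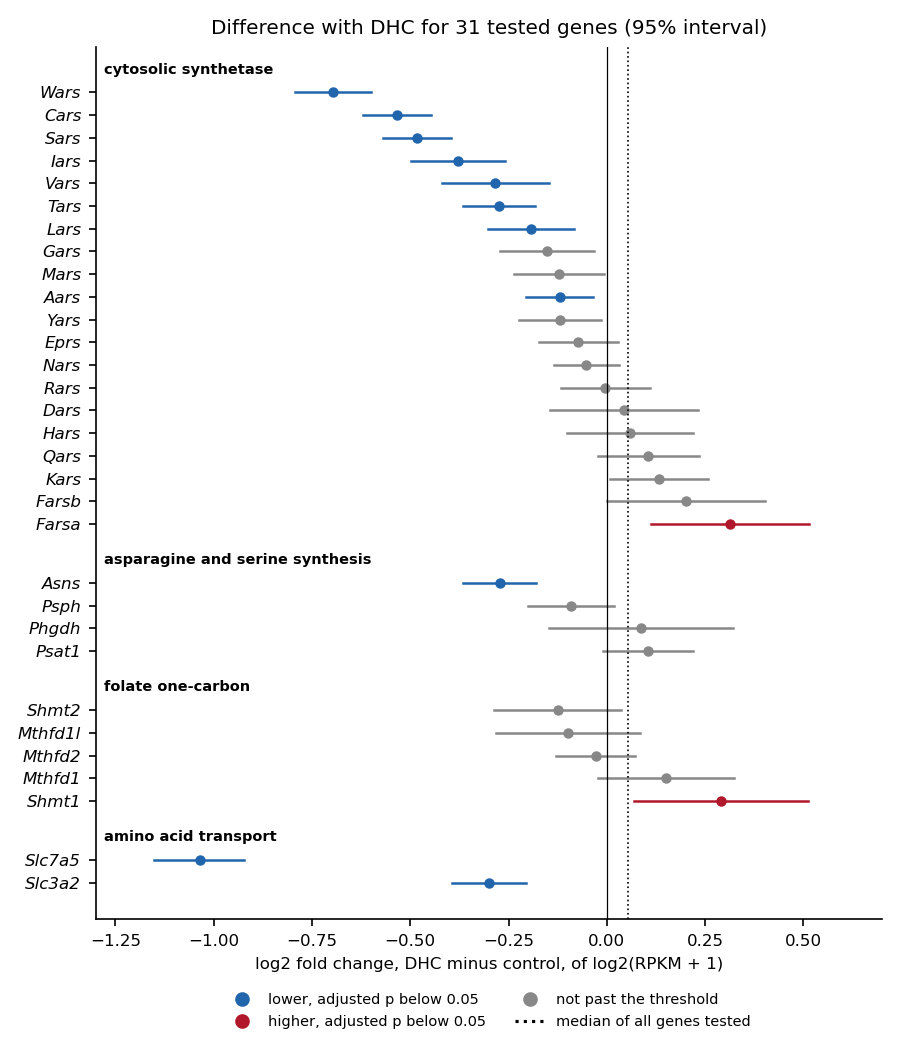
Log2 fold change of log2(RPKM + 1), DHC minus control, for the 31 tested members by role, with 95% intervals of the limma fit; blue marks lower, red higher and grey genes not past the threshold, and the dotted line is the median of all genes tested (0.05). Slc7a5 lies furthest from 0 at -1.04, and most serine and one-carbon genes have intervals that include 0.

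Slc7a5 (chr19:54693959-54722563 of Rnor_6.0, minus strand), the transporter light chain, measured 65.9, 62.9 and 68.8 RPKM in control libraries 1 to 3 and 31.7, 31.1 and 31.9 RPKM with DHC. Each DHC library was below the lowest control by more than the whole spread within either group. The means were 65.9 ± 2.92 and 31.6 ± 0.424 RPKM, a 2.09-fold lower level (log2 fold change -1.04 ± 0.05, limma adjusted p = 1.34e-05). Slc3a2 (chr1:224906554-224921092, minus strand), the heavy chain, measured 301, 310.0 and 321 RPKM in control and 256, 249 and 251 RPKM with DHC. It was lower in all 3 DHC libraries by a smaller amount, from 310.5 ± 9.95 to 252 ± 3.90 RPKM (-0.30 ± 0.04, limma adjusted p = 0.00137). The heavy chain was thus the more abundant transcript per length in every library, and the RPKM ratio of Slc3a2 to Slc7a5 was 4.57, 4.92 and 4.66 in control and 8.08, 7.99 and 7.86 with DHC. That ratio was 1.69 times as high with DHC, with no overlap (two-sided exact permutation p = 0.1, the smallest that 3 against 3 allows). Slc3a2 is also the heavy chain of Slc7a6, Slc7a7, Slc7a8 and Slc7a11.

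**Figure D3:**
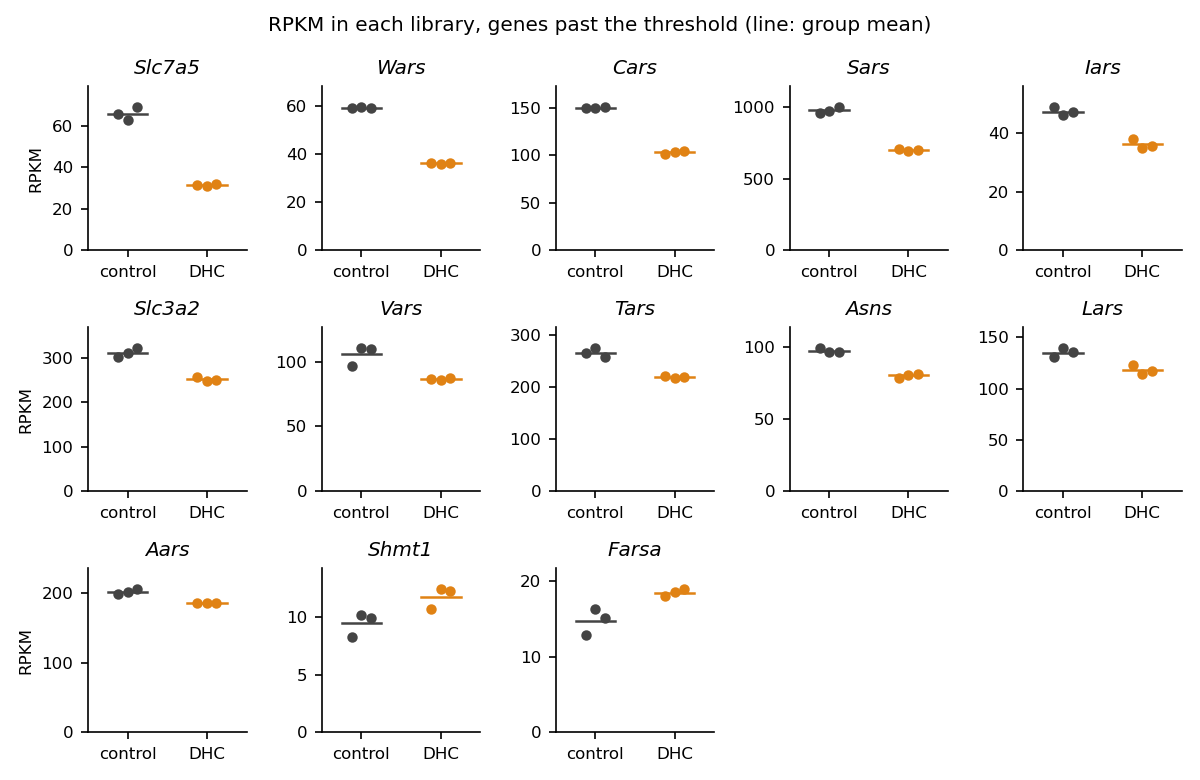
RPKM of the 13 members past the threshold in each of the 6 libraries (points; lines are group means; each panel starts at 0 with its own scale). In the 11 genes that fell every DHC point is below every control point, and in Farsa and Shmt1 every DHC point is above.

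Of the 20 synthetases, 8 were lower, 1 was higher and 11 did not pass the test, with a median log2 fold change of -0.12. The greatest fall was in Wars (chr6:132771021-132802210, minus strand), which charges tryptophan, at 59.2, 59.3 and 58.9 RPKM in control and 36.3, 35.7 and 36.3 RPKM with DHC. Replicates lay within 1 RPKM of each other in both groups, and the fall was 39.0% (-0.70 ± 0.04, limma adjusted p = 2.99e-05). Tryptophan is also a substrate of the Slc7a5 transporter. Cars (chr1:216759366-216801656, minus strand), for cysteine, measured 149.6, 149.8 and 151 RPKM in control and 102, 104 and 104 RPKM with DHC. It fell by 31.1% with no overlap of the groups (-0.53 ± 0.04, limma adjusted p = 6.14e-05).

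Sars (chr2:211219750-211235467, minus strand) charges serine tRNAs and also places serine on the selenocysteine tRNA, where it is then converted. It was the highest synthetase by RPKM in both groups, at 959, 972 and 994 RPKM in control and 706, 688 and 698 RPKM with DHC. The fall was 28.5% (-0.48 ± 0.04, limma adjusted p = 0.000101). Sars made up 24.8% of the summed synthetase RPKM in control and 53.4% of the fall in that sum.

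The other synthetases called lower changed less. Iars, for isoleucine, was 48.6, 45.9 and 47.0 RPKM in control and 37.7, 34.8 and 35.6 RPKM with DHC (-0.38 ± 0.05, limma adjusted p = 0.00133). Vars, for valine, was 96.7, 110.1 and 109.9 RPKM in control and 86.3, 85.9 and 87.0 RPKM with DHC (-0.28 ± 0.06, adjusted p = 0.00843), so that control 1 was the closest control to the DHC libraries. Tars, for threonine, was 265, 274 and 258 RPKM in control and 220.3, 218 and 219.7 RPKM with DHC (-0.28 ± 0.04, adjusted p = 0.00172). With Lars, for leucine, the enzymes for all 3 branched-chain amino acids were lower. Lars fell from 135 ± 4.19 to 118 ± 4.49 RPKM (-0.19 ± 0.05, adjusted p = 0.0165), and its call was lost without control 2 (adjusted p = 0.0651), DHC 2 (0.0723) or DHC 3 (0.0519). Aars, for alanine, had the smallest called fall, from 203 ± 3.10 to 186 ± 0.301 RPKM (-0.12 ± 0.04, adjusted p = 0.0378), and its call was lost without control 2, control 3 or any 1 of the DHC libraries and with each library's length trend removed (adjusted p from 0.0655 to 0.117).

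Farsa and Farsb encode the catalytic and the other subunit of phenylalanyl-tRNA synthetase, and they had the lowest levels of the 20. Farsa was 12.8, 16.3 and 15.1 RPKM in control and 18.0, 18.5 and 18.9 RPKM with DHC, a 1.25-fold rise (0.31 ± 0.09, limma adjusted p = 0.0273). The controls varied more than the DHC libraries, and the call was lost under both other scalings (adjusted p = 0.0671 with trimmed means and 0.0577 with median-of-ratios), without a filter on low values (0.0611) and without control 3 (0.0534), DHC 2 (0.0788) or DHC 3 (0.0774). Farsb was 12.7 ± 1.34 RPKM in control and 14.7 ± 0.907 with DHC (0.20 ± 0.09, adjusted p = 0.109), and the ratio of Farsa to Farsb was 1.18 ± 0.220 and 1.26 ± 0.0532 (exact permutation p = 0.5).

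Among the synthetases that did not pass, Gars for glycine came nearest, at 491 ± 19.0 RPKM in control and 442 ± 22.2 with DHC (-0.15 ± 0.05, limma adjusted p = 0.0548). It was called lower in 8 of the 17 alternatives, including trimmed means (0.0223), median-of-ratios factors (0.0241) and limma-voom (0.0183). Yars for tyrosine was 169.8 ± 5.75 and 156 ± 4.76 RPKM (adjusted p = 0.0745) and was called lower in 4 alternatives, both other scalings among them (0.0193 and 0.0228). Kars for lysine was 135 ± 4.22 and 148 ± 8.53 RPKM (0.09), with every DHC library above every control. It was called higher in 3 alternatives: without DHC 1 (0.0315), without both libraries numbered 1 (0.0323) and with the replicate block (0.0202). Qars for glutamine was 130.2 ± 5.22 and 140.3 ± 8.06 RPKM (0.175), and was called higher with the replicate block (0.0362). Nars for asparagine, the second most abundant synthetase, was 586 ± 1.28 and 566 ± 7.97 RPKM (0.296). The 95% interval of its log2 fold change was -0.13 to 0.03, a narrower range than for Dars, for aspartate, at -0.14 to 0.23 (adjusted p = 0.705). Eprs, which charges both glutamate and proline (adjusted p = 0.232), Hars for histidine (0.535) and Rars for arginine (0.961) also did not pass, and the sign of Hars and Dars turned when values were scaled by trimmed means. Mars, for methionine, was 56.7 ± 2.61 RPKM in control and 52.0 ± 0.811 with DHC (adjusted p = 0.0905), and was called lower under both other scalings (0.0206 and 0.0249). Its value is uncertain, because 72 exon bases (2.59% of its exons) are shared with Ddit3 on the opposite strand, whose control level was 23.6 times as high and which fell with DHC, and no source says that counting used strand.

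By RPKM in control the synthetases spanned a 77.0-fold range from Sars to Farsb. After Sars came Nars, Gars and Tars, and Sars lay above Nars, and Nars above Gars, with no overlap of control libraries. Control libraries of these neighbours overlapped: Aars and Eprs, Lars, Kars and Qars, Hars and Vars, Wars, Rars and Mars, and Farsa and Farsb. Yars, Cars, Iars and Dars overlapped no neighbour. The synthetases summed to 3847, 3959 and 3989 RPKM in control and 3371, 3395 and 3467 RPKM with DHC, lower in all 3 DHC libraries (exact permutation p = 0.1, the smallest possible). Without Sars the sums were 2956 ± 59.6 and 2714 ± 52.6 RPKM, again with no overlap. Of the 12 free synthetases 6 were lower and 1 was higher, and their sum was 3147 ± 58.5 RPKM in control and 2645 ± 32.3 with DHC (exact p = 0.1). This set holds Sars, which gave 277.7 of the 501.6 RPKM by which the sum fell. Of the 8 in the multisynthetase complex, Iars and Lars were lower and none higher, and the sum was 784 ± 16.6 and 766 ± 18.8 RPKM (exact p = 0.2), with overlap between the groups. The difference between the free and the complexed enzymes was not tested. By catalytic fold, 5 of 9 class I and 3 of 10 class II enzymes were lower, and Eprs, which has both, was not called.

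**Figure D4:**
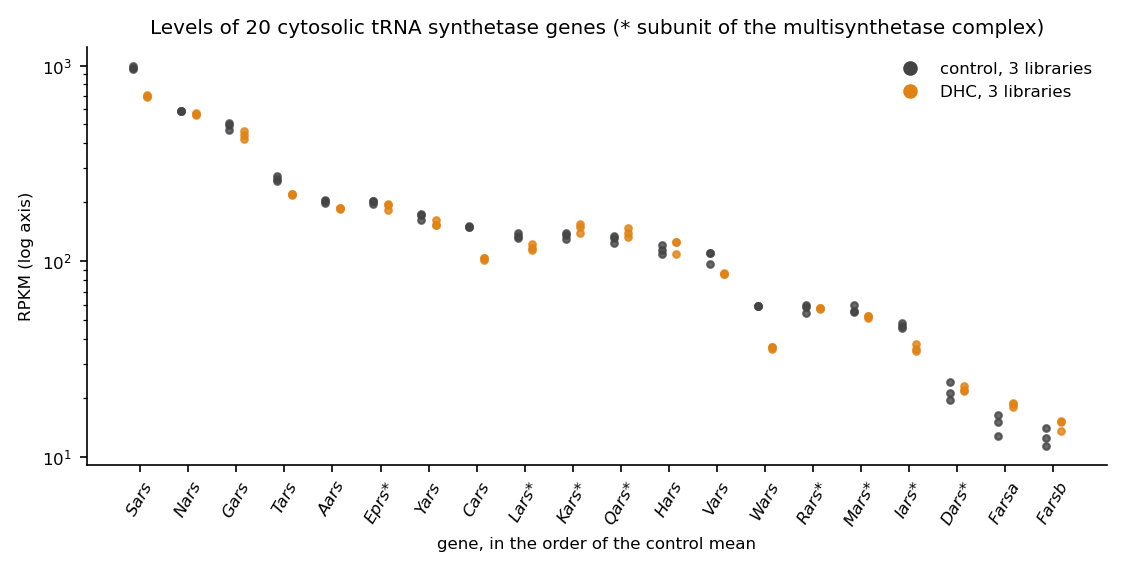
RPKM of the 20 cytosolic synthetases on a log axis, 3 control (dark) and 3 DHC (orange) libraries each, ordered by the control mean; an asterisk marks subunits of the multisynthetase complex. Sars stands highest at 975 RPKM in control and 697 with DHC, and Farsa and Farsb lowest.

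Of the 6 members with TGATGNAA, 3 were lower (Cars, Iars and Tars, printed above), and Mars, Nars and Yars did not pass. Of the 20 members analysed but without these letters in the window, 7 were lower, among them Wars, Sars, Slc7a5 and Asns. Of the 6 members with CACGTG, 4 were lower (Iars, Tars, Vars and Slc7a5), Shmt1 was higher and Farsb did not pass. Of the 20 members analysed but without CACGTG, 6 were lower. For the other motifs, 4 of 9 members with CCGGAAG were lower, 8 of 18 with GGGCGG and 4 of 13 with CCAAT. Of all genes tested, 16.1% were lower. Whether any motif goes with the change was not tested.

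Of the 4 genes for asparagine and serine synthesis, 1 was lower and 3 did not pass. Asns (chr4:33743364-33761163, minus strand) makes asparagine from aspartate with glutamine as the nitrogen donor. It measured 99.3, 96.8 and 96.8 RPKM in control and 78.9, 81.2 and 81.9 RPKM with DHC, with no overlap, a fall of 17.4% (-0.27 ± 0.04, limma adjusted p = 0.00195). The 3 steps from the glycolytic intermediate 3-phosphoglycerate to serine did not pass. Phgdh, the first step, was 191, 233 and 247 RPKM in control and 218, 236 and 255 RPKM with DHC (adjusted p = 0.539, 95% interval of the log2 fold change -0.15 to 0.32), so its library 1 was the lowest of both groups and the interval is wide. Psat1, the second step, was 27.5 ± 0.714 and 29.6 ± 0.688 RPKM (adjusted p = 0.134, interval -0.01 to 0.22), and Psph, the last, was 119 ± 5.28 and 111 ± 2.16 RPKM (adjusted p = 0.168, interval -0.20 to 0.02). The ratio of Psph to Psat1 was 4.32 ± 0.235 in control and 3.76 ± 0.0918 with DHC, with no overlap (exact permutation p = 0.1). That of Phgdh to Psat1 was 8.15 ± 1.17 and 7.99 ± 0.659, with overlap (exact permutation p = 0.8).

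Of the 6 one-carbon genes, which pass the hydroxymethyl carbon of serine onto folate and on to formate and purines, 1 was higher, 4 did not pass and Aldh1l2 was too low to test, at 0.470 ± 0.0852 RPKM in control and 0.477 ± 0.0728 with DHC. Shmt1, the cytosolic serine hydroxymethyltransferase, was 8.25, 10.2 and 9.96 RPKM in control and 10.7, 12.4 and 12.2 RPKM with DHC (1.24-fold, 0.29 ± 0.10, limma adjusted p = 0.0494). The lowest DHC library was just above the highest control, and the call was lost in 8 of the 17 alternatives, both other scalings among them (adjusted p from 0.0585 to 0.147). Those 8 also held the fits without any 1 of the controls, without DHC 2 or DHC 3, and without a filter on low values. Shmt2, its mitochondrial counterpart, was 178 ± 11.3 RPKM in control and 163 ± 12.1 with DHC (-0.13 ± 0.07, adjusted p = 0.199). The ratio of Shmt2 to Shmt1 was 20.0, 18.1 and 18.5 in control and 14.0, 13.4 and 14.2 with DHC, with no overlap (exact permutation p = 0.1). Mthfd1, the cytosolic enzyme of the folate interconversions, was 70.7 ± 6.39 and 78.5 ± 4.38 RPKM (adjusted p = 0.156). In mitochondria, Mthfd2 was 185 ± 6.50 and 181 ± 4.26 RPKM (0.645) and Mthfd1l was 36.2 ± 2.54 and 33.8 ± 2.87 RPKM (0.363). The 95% interval for Mthfd2 was -0.13 to 0.07, so a change of the size of Asns is outside it. Unlike the Shmt2 to Shmt1 ratio, the other ratios taken here overlapped between the groups. Mthfd2 to Mthfd1 was 2.63 ± 0.160 in control and 2.32 ± 0.175 with DHC (exact permutation p = 0.2). Mthfd2 to Mthfd1l was 5.12 ± 0.190 and 5.40 ± 0.574 (exact permutation p = 0.7).

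Together the 32 members took 1.32, 1.37 and 1.38% of reads in the controls and 1.17, 1.19 and 1.21% with DHC, lower in all 3 DHC libraries (exact permutation p = 0.1). By role, the synthetases took 1.07 ± 0.0197% in control and 0.933 ± 0.0129% with DHC, and the transporter subunits 0.0866 ± 0.00272% and 0.0627 ± 0.000887%, both without overlap. The asparagine and serine genes took 0.0844 ± 0.00549% and 0.0826 ± 0.00344% (exact p = 0.8), and the one-carbon genes 0.114 ± 0.00689% and 0.113 ± 0.00461% (exact p = 0.6). Control 1 was the lowest of its group for 23 of the 32 members and DHC 1 for 16. By position, 4 members lie on chromosome 19 of Rnor_6.0 (Aars, Farsa, Kars and Slc7a5), which holds 3.07% of all genes measured, and these 4 did not share a direction.

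Genes of the same pathways were then counted in lists beside the members. Of all genes tested, 34.5% were called, 18.4% higher and 16.1% lower. The share called was 59.1% for the integrated stress response, 45.5% for transporters, 42.1% for folate genes and 30% for other amino acid synthesis genes. It was also 30% for elongation factors, 26.9% for mTORC1 sensing, 23.1% for scaffold and accessory genes and 9.52% for mitochondrial synthetases. No list was tested. In the integrated stress response, of 22 genes tested 6 were higher and 7 lower (median log2 fold change -0.06), and with trimmed means 4 were higher and 11 lower. Higher were the kinase genes Eif2ak1 (limma adjusted p = 0.0442), Eif2ak2, Eif2ak3 (0.049) and Eif2ak4, with Impact and Atf5. Lower were Ddit3, Ddit4, Trib3, Cebpb, Atf3 (0.00854), Eif4ebp1 (0.0169) and Ppp1r15a (0.0454). For Eif2ak1, Eif2ak3 and Ppp1r15a, which lay near the threshold, the alternatives were not followed gene by gene. The count of higher genes in this list was also 4 with median-of-ratios factors and without control 2, control 3 or any 1 DHC library. Atf4 itself was 532, 532 and 528 RPKM in control and 547, 535 and 523 RPKM with DHC (limma adjusted p = 0.82), and its sign turned under both other scalings. Among its textbook targets, Ddit3 (CHOP) and the pseudokinase Trib3 were lower, Ddit3 from 1337 ± 40.0 to 909.9 ± 35.6 RPKM (adjusted p = 0.00014) and Trib3 from 116 ± 7.51 to 89.9 ± 4.24 RPKM (0.00353). Chac1, which degrades glutathione, was 64.6 ± 2.28 and 69.1 ± 1.78 RPKM (0.149). Atf5 rose 1.55-fold (0.00322) and was the only one of these targets called higher. Eif2ak4, which encodes GCN2, rose 1.27-fold (0.0067), as did Impact, an inhibitor of GCN2 activation, by 1.34-fold (0.00231) and Eif2ak2, the double-stranded RNA kinase PKR, by 1.40-fold (0.00199). Ddit4, an inhibitor of mTORC1, fell by 29.8% (0.000187), and Cebpb from 3.75 ± 1.01 to 1.77 ± 0.224 RPKM (0.00872). Myc, whose protein binds E-boxes, fell from 7.82 ± 1.05 to 0.673 ± 0.292 RPKM (-2.41 ± 0.15, adjusted p = 3.78e-05).

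Of 22 other amino acid transporters tested, 3 were higher and 7 lower (median 0.05). Slc38a2 (SNAT2), which imports small neutral amino acids, moved opposite to Slc7a5, from 129.5, 132 and 132 RPKM in control to 218, 229 and 234 RPKM with DHC (1.73-fold, limma adjusted p = 1.99e-05). The ratio of Slc38a2 to Slc7a5 was 2.00 ± 0.0894 in control and 7.19 ± 0.270 with DHC (exact permutation p = 0.1). The taurine transporter Slc6a6 fell by 29.4% (adjusted p = 0.0016), the glutamine transporter Slc38a1 by 27.1% (0.00193) and the cationic amino acid transporter Slc7a1 by 29.9% (0.00248).

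A list of 21 genes for charging tRNA in mitochondria holds synthetases, amidotransferase subunits and the formyltransferase Mtfmt, and it leaves out Gars and Kars, which serve both compartments. Of these 21, all tested, 1 was higher and 1 lower (median 0.13), namely Gatc, a subunit of the glutamyl-tRNA amidotransferase, at 3.55 ± 0.510 and 4.79 ± 0.121 RPKM (limma adjusted p = 0.033), and Wars2, for tryptophan, at 3.25 ± 0.170 and 2.38 ± 0.264 RPKM (0.0362). The 2 calls fell to 0 without control 2, control 3 or DHC 2, and that of Gatc was also lost under both other scalings (0.0605 and 0.056). Only 5 of the 21 reached a mean of 5 RPKM, and adding 1 before the log understates changes at low levels. Few calls here therefore do not show an absence of change. The difference between this list and the members was not tested. Of 13 scaffold and accessory genes tested, 2 were higher and 1 lower. Gtpbp2, a GTPase that rescues stalled ribosomes, fell from 18.5, 19.7 and 20.2 RPKM to 8.48, 7.85 and 8.33 RPKM (-1.15 ± 0.06, adjusted p = 2.38e-05). The scaffold gene Aimp2 was 1.24-fold higher (0.0427), a call lost in 10 of the 17 alternatives, both other scalings and the fits without control 1, control 2 or any 1 DHC library among them (adjusted p from 0.0505 to 0.137). Tarsl2, a second threonyl-tRNA synthetase, rose 1.30-fold (0.0047) where Tars fell.

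**Figure D5:**
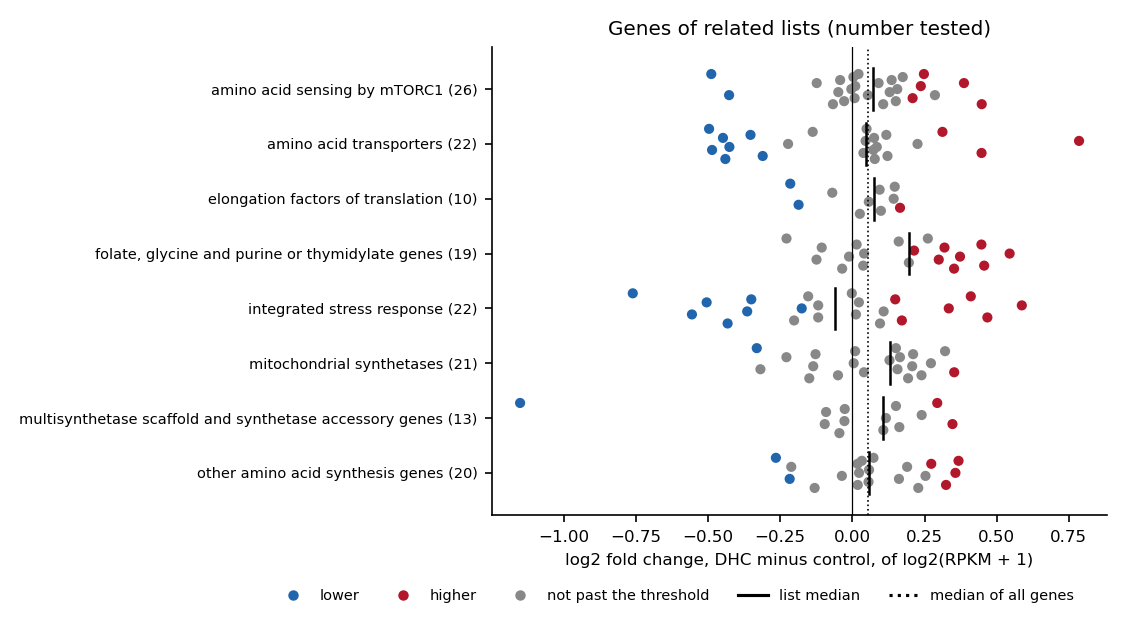
Log2 fold change of log2(RPKM + 1), DHC minus control, of each tested gene in 8 related lists (numbers tested in brackets); blue is lower, red higher, grey not past the threshold, black bars are list medians and the dotted line is the median of all genes (0.05). The folate list holds 8 higher and 0 lower genes, and the transporter list 3 higher and 7 lower.

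Of 19 further genes of folate, glycine, purine and thymidylate metabolism, 8 were higher and 0 lower (median 0.20). They included Ppat, the first committed enzyme of purine synthesis, at 1.40-fold (limma adjusted p = 0.00126), the methionine adenosyltransferase subunit Mat2b at 1.39-fold (0.00167), the methionine synthase reductase Mtrr at 1.56-fold (0.00462) and the purine enzyme Adsl at 1.24-fold (0.0154, and 0.0508 without DHC 3). The count was 5 without control 2, control 3, DHC 2 or DHC 3. Of 20 other amino acid synthesis genes 4 were higher and 2 lower, and with trimmed means 3 and 3. The ornithine aminotransferase Oat rose 1.30-fold (0.000705), the glutamate dehydrogenase Glud1 1.29-fold (0.00435) and the proline enzyme Pycrl 1.28-fold (0.00848), and Bcat1, which transfers the amino group of branched-chain amino acids, fell by 16.9% (0.00462).

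Of 26 genes by which mTORC1 senses amino acids, 5 were higher and 2 lower, or 26.9% called against 34.5% of all genes tested. Under both other scalings the counts were 1 and 2, and they were 4 in all without control 2 and 3 without DHC 2. Akt1s1 fell by 26.4% (limma adjusted p = 0.00567) and the mTORC1 subunit Rptor from 2.98 ± 0.155 to 1.84 ± 0.239 RPKM (0.00997), while Mios rose 1.44-fold (0.0111) and the kinase Rps6kb1 1.16-fold (0.0169), the last call being lost under both other scalings (0.0645 and 0.0525), without DHC 2 (0.0555) and without both libraries numbered 1 (0.058). The Rptor call was also lost without both libraries numbered 1 (0.0565). Of 10 elongation and termination factors 1 was higher and 2 lower, and 1 in all without control 2, control 3 or DHC 2. Eef1a1, which brings charged tRNA to the ribosome, rose 1.12-fold (0.0172), but did not pass under either of the other scalings (0.124 and 0.0881) or without a filter, control 2, control 3, DHC 2 or DHC 3. The release factor Gspt1 fell by 14.1% (0.00754) and the kinase Eef2k by 12.3% (0.0252), the latter call being lost without control 2, control 3, DHC 1 or DHC 2 (adjusted p from 0.062 to 0.088).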

How the data were processed

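RNA-seq libraries of 6 RBL-2H3 samples, 3 control and 3 DHC by their titles, were compared. The authors deposited a table of RPKM, 1 column per library, for 18286 genes, and their exon coordinates and lengths, per the file headers. The unit was read from the values: multiplied by exon length and divided by the step of 1 read, 100% of them came out whole (tolerance 0.01), and this gave read numbers and library totals from 29084976 to 34170922. The submitters' processing notes name edgeR 3.12.1, Subread 1.5.1 with featureCounts, Trimmomatic 0.36 and the build Rnor_6.0. Aligner, annotation and strand setting: not given in the sources used. RPKM is scaled only by library total, so a shift in abundant transcripts moves the others slightly.

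The test was limma 3.58.1 in R 4.3.3, two-sided, with a trended variance on log2(RPKM + 1), group as the only term, over the 10667 genes that reached 1 RPKM on average, with Benjamini-Hochberg adjustment. The pseudocount understates changes of low genes. Single values were compared by exact two-sided permutation over libraries. The method was also run on simulated reads with the same relative spread for all genes. Its outcome is not given here, and no result rests on it. The members and the lists were chosen with earlier results of these data known, so list counts are descriptions and not independent support. Named genes were all members, up to 4 called genes of the lowest p per related list, and Atf4, Eif2ak4, Ddit3, Trib3, Chac1, Atf5, Cebpb, Myc and 4 mast cell markers. Cd3e, Col3a1, Gata2, Hdc, Mtfmt, Atf3, Eif2ak1, Eif2ak3, Eif4ebp1 and Ppp1r15a, and the RefSeq windows printed, were chosen after their values were seen. The promoter of Aars is not reported here. Alternatives were other pseudocounts, filters and scalings, limma-voom on recovered reads, robust variance, a replicate block, each library left out, both libraries numbered 1 left out, a threshold of 0.01 and, added after seeing the data, removal of each library's length trend.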

Additional observations from a re-analysis of the deposited data

How the results depend on the processing

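Over the genes named, 1103 values from the alternatives kept their direction and their side of the threshold, 75 were weaker, 24 stronger and 17 turned. Atf3, Cd3e, Col3a1, Eif2ak1, Eif2ak3, Eif4ebp1, Mtfmt and Ppp1r15a were not included in these numbers. The counts of changed members (13), of lower members (11) and of lower synthetases (8) stayed within 1.5 times the value reported under every alternative, the lower members running from 9 to 13 as single libraries were left out, and reaching 16 with trimmed means. Higher members (2) were 0 without a filter, with trimmed means, with median-of-ratios factors and at a threshold of 0.01, and 0 to 3 with single libraries left out. At 0.01, 1949 genes passed (873 higher, 1076 lower), and the counts were 2 for mTORC1 sensing, 6 for transporters, 1 for elongation factors, 3 for folate genes and 0 for mitochondrial synthetases. With trimmed means 1284 genes were higher, and with single libraries left out 1201 (without DHC 2) to 1746. Both other scalings gave 3 for mTORC1 sensing. Without a filter the folate genes gave 5 and the mitochondrial synthetases 1, and a mean of at least 5 RPKM gave 0 for the latter. With limma-voom elongation factors and mitochondrial synthetases each gave 5. Without both libraries numbered 1, elongation factors and folate genes each gave 5 and mitochondrial synthetases 1. Leaving out single libraries gave 3 to 6 for mTORC1 sensing, 1 to 3 for elongation factors, 5 to 8 for folate genes and 0 to 2 for mitochondrial synthetases. The cause of these shifts was not tested.

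No label says whether the replicate numbers pair the libraries. Deviations of same-numbered libraries correlated at 0.228, -0.0495 and 0.0828, and those of differently numbered libraries at -0.183 to 0.106. These few values do not settle whether the libraries are paired. With the replicate block 5 members were higher and 13 lower, and elongation factors gave 6 and scaffold and accessory genes 5. Gars (limma adjusted p = 0.00675) and Shmt2 (0.0227) then passed as lower, and Kars (0.0202), Qars (0.0362) and Mthfd1 (0.0235) as higher.

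Log2 fold changes that turned were all of genes not past the threshold. With trimmed means they were Dars at -0.0199, Hars at -0.00677, Atf4 at -0.0539 and Fcer1a at -0.028, and with median-of-ratios factors Dars at -0.0105, Atf4 at -0.0441 and Fcer1a at -0.0182. With the length trend removed Rars was 0.00292, and without both libraries numbered 1 Atf4 was -0.00163. With single libraries left out the ranges were -0.0261 to 0.123 for Dars, -0.0412 to 0.0248 for Rars, -0.0236 to 0.162 for Phgdh, -0.00367 to 0.0283 for Atf4, -0.0171 to 0.106 for Fcer1a and -0.132 to 0.0599 for Fcer1g. Depth limits Aldh1l2 (40.2 reads on average), and 3 libraries a group limit every exact test to p = 0.1.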
